A study of Mus musculus with 18 samples.

Results

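The difference between Msx1+ and Msx1- cells of mouse embryoid bodies was followed from day 8 to day 16 of differentiation. The measure was the interaction: the Msx1+ minus Msx1- difference at day 16, minus the same difference at day 8, on the log2 scale. An interaction below 0 means that the ratio of Msx1+ to Msx1- was lower at day 16, and one above 0 that it was higher. All 54114 gene rows of the count table entered, and the 22294 rows that passed a filter on low counts were tested. The 31820 rows below the filter included 17862 with no count in the 8 libraries, and nothing is said of them.

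Embryoid bodies are aggregates in which embryonic stem (ES) cells differentiate. The cells came from a mouse ES line with a tdTomato reporter at Msx1 and with doxycycline-inducible Dlx2. They were kept with serum and LIF, aggregated in hanging drops with doxycycline at 1 µg/ml per the labels, and sorted by flow cytometry into 4 groups, Msx1- and Msx1+ at day 8 and Msx1- and Msx1+ at day 16, with 2 libraries each of the 18 samples in the series. All 4 groups carried the inducible Dlx2 and were labelled as induced, so they hold no uninduced or GFP control. The Msx1- fraction holds every cell without the reporter signal, of whatever type. The labels do not say whether the 2 libraries of a group came from separate cultures, so p-values measure the spread between libraries, which may be technical. Because these are sorted bulk samples, fewer cells of a type and less RNA per cell cannot be told apart.

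Msx1 and Dlx2 encode homeodomain transcription factors of the neural crest-derived mesenchyme of the head, called ectomesenchyme, which forms facial bone, dental pulp and connective tissue. ES cells leave pluripotency by shutting off a network around Pou5f1, Nanog and Sox2. Embryoid bodies also form extraembryonic endoderm: visceral endoderm takes up and secretes nutrients, and parietal endoderm lays down a thick basement membrane of type IV collagen and laminin. Mesenchymal cells on the way to bone pass through stages marked by fibrillar collagens, small proteoglycans and, later, mineral-binding proteins.

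The 8 libraries held between 56048918 and 107770730 counts. The deepest was the replicate 2 library of Msx1+ cells at day 8, and the other 7 held at most 65655287. Mitochondrial genes took 1.602% to 2.097% of the counts. Levels below are CPM, that is counts scaled to the library total with factors from the trimmed mean of M-values, and are compared between groups within a gene, not between genes.

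The sorted gene, Msx1, stood at 1.93 and 1.03 CPM in the Msx1- libraries of day 8 and at 41.5 and 47.4 CPM in the Msx1+ libraries. At day 16 it stood at 0.830 and 0.763 CPM in Msx1- and at 74.7 and 82.7 CPM in Msx1+ libraries. The fractions did not overlap on either day, and the interaction was 1.73 ± 0.295 (SE; edgeR quasi-likelihood, adjusted p = 8.32e-04). Because the cells were sorted on this gene, its difference is a check of the labels and not a result. Dlx2, the induced gene, was higher in Msx1+ cells on both days and fell in both fractions. It went from 1152 and 1287 to 292 and 346 CPM in Msx1+ cells, and from 273 and 275 to 133 and 148 CPM in Msx1- cells, with an interaction of -0.97 ± 0.115 (SE; adjusted p = 2.09e-05). The counts do not separate the induced from the endogenous transcript.

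The fraction difference changed with time for many genes, and most of the large changes went against the Msx1+ fraction. The interaction was below 0 for 4090 genes (18.3% of those tested) and above 0 for 2294 (10.3%) at an adjusted p under 0.05. With an absolute log2 of at least 1, the counts were 2579 (11.6%) and 414 (1.86%). The split depended on scaling: 64.1% of the called genes were below 0 here, 57.6% with relative log expression scaling and 84.5% with plain library size. The median interaction of all genes was -0.10, -0.05 and -0.28 in that order. Over all genes, 54.7% were called between the fractions at day 8 and 62.1% at day 16. Of the genes with an interaction below 0, 1355 were called between the fractions on both days with the same sign and a larger difference at day 16, 1074 were called at day 16 only, 773 had a smaller difference at day 16, 455 were called at day 8 only, 396 changed sign and 37 were called on neither day.

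**Figure D1:**
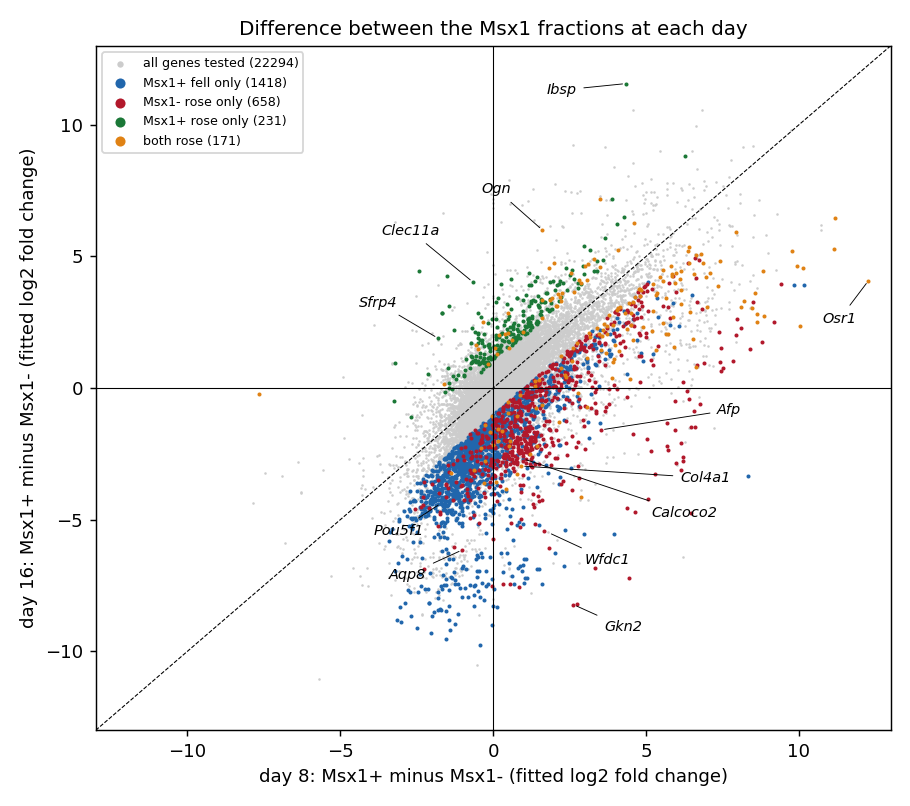
Each point is a tested gene, with the fitted log2 difference between Msx1+ and Msx1- at day 8 on the horizontal axis and at day 16 on the vertical axis; colours mark 4 of the movement classes described in the text. Points below the dashed diagonal have an interaction below 0, where the 1418 genes that fell in Msx1+ cells and the 658 that rose in Msx1- cells lie, and points in the lower right quadrant were higher in Msx1+ cells at day 8 and lower at day 16.

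The 2993 genes (13.4%) with a called interaction of at least 1 on the log2 scale were separated by which fraction moved between the days, using the tests of day 16 against day 8 within each fraction and the same limits, which 18.3% of all genes passed in Msx1+ and 11% in Msx1- cells. In 1418 genes (47.4% of the 2993) only the Msx1+ fraction fell. In these classes "only" means that the other fraction did not pass both limits, and it may still have changed by less. In 658 (22.0%) only the Msx1- fraction rose. Msx1+ alone rose in 231 (7.72%), both fractions rose in 171 (5.71%), Msx1+ fell while Msx1- rose in 93 (3.11%), both fell in 69 (2.31%), Msx1- alone fell in 33 (1.10%), and Msx1+ rose while Msx1- fell in 5 (0.167%). In the other 315 (10.5%) neither fraction passed both limits. A description by the group that stood farthest from the other three gave the same order at the top: Msx1+ at day 16 was the low group in 1083 genes, Msx1- at day 16 the high group in 487, Msx1- at day 8 the low group in 277, Msx1+ at day 16 the high group in 264 with an interaction above 0 and 20 with one below, and Msx1+ at day 8 the high group in 263.

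**Figure D2:**
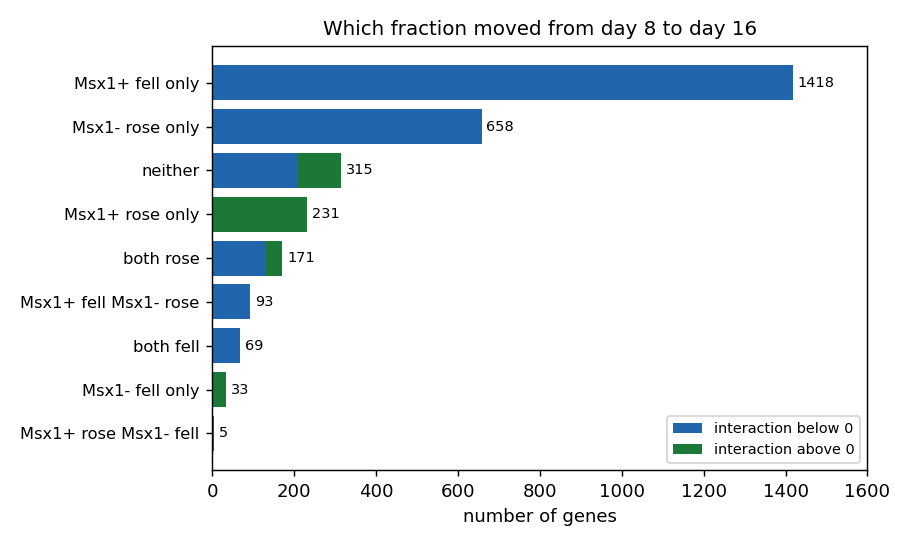
Bars give the number of genes in each movement class among the 2993 genes with a called interaction of at least 1 on the log2 scale, coloured by the sign of the interaction. The bar for genes that fell in Msx1+ cells only reaches 1418, and the bar for genes that rose in Msx1+ cells only reaches 231.

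The largest class, genes that fell only in Msx1+ cells by the limits, held 11 of 16 core and 14 of 20 naive pluripotency genes. It held 1418 of all 22294 genes tested. Core genes also fell in Msx1- cells, by less: the median log2 change from day 8 to day 16 was -0.69 there and -2.83 in Msx1+ cells. The core list was already lower in Msx1+ than in Msx1- cells at day 8, with a median of -1.51 on the log2 scale, and stood at -3.77 at day 16. Pou5f1, the central pluripotency factor, stood at 553 and 547 CPM in Msx1- and at 166 and 174 CPM in Msx1+ libraries at day 8. At day 16 it stood at 335 and 344 CPM in Msx1- and at 16.1 and 16.7 CPM in Msx1+ libraries. The Msx1+ libraries of day 16 lay far below the other 6, and the interaction was -2.67 ± 0.0805 (SE; adjusted p = 3.69e-11). Nanog, its partner in the network, stood at 452 and 432 CPM in the Msx1- libraries of day 16, which overlap the 441 and 421 CPM of day 8, but fell from 92.0 and 106 to 15.9 and 17.6 CPM in Msx1+ cells. Pou5f1 and Nanog were chosen for display after their values were seen.

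All 16 core pluripotency genes tested were called, 15 below 0 and 1 above, with a median interaction of -2.30 beside -0.10 over all genes. Dnmt3l, a partner of the de novo DNA methyltransferases, gave the largest fall, -2.98 ± 0.0899 (SE; adjusted p = 3.69e-11), from 153 and 166 to 10.7 and 11.6 CPM in Msx1+ cells. Dppa4, a chromatin factor of early embryos, followed with -2.78 (adjusted p = 4.99e-11). The exception was Lin28b, a blocker of let-7 maturation, which was at 55.6 and 55.5 CPM in Msx1+ and 27.2 and 28.2 CPM in Msx1- libraries of day 16 and between 38.2 and 41.4 CPM in all 4 libraries of day 8. The naive pluripotency list moved likewise: 18 of 20 members were below 0 and 2 above, median -2.24. Fgf4, which drives exit from the naive state, went from 35.9 and 35.3 to 3.18 and 2.86 CPM in Msx1+ cells but only from 227 and 224 to 122 and 128 CPM in Msx1- cells. Fbxo15, a known target of Pou5f1, went from 23.7 and 18.6 to 3.56 and 5.34 CPM in Msx1+ cells and stood at 130 and 128 CPM in Msx1- cells of day 16. Above 0 were Spp1, the secreted phosphoprotein osteopontin, at 1.29 (adjusted p = 6.44e-07), and Klf2 at 0.42, whose call was lost with library size scaling (adjusted p = 0.155) and without any of 4 single libraries (adjusted p from 0.0574 to 0.0819). The summed level of the 16 core genes was 6659 and 6669 CPM in Msx1- and 2549 and 2698 CPM in Msx1+ libraries of day 8, and 4187 and 4295 against 589.8 and 582.1 CPM at day 16.

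The primed pluripotency list was mixed, with 8 of 18 below 0 and 4 above, beside 18.3% and 10.3% over all genes. Lefty1, an inhibitor of Nodal, was alike in 3 groups, between 157 and 183 CPM, and fell to 26.5 and 28.3 CPM in the Msx1+ libraries of day 16 (interaction -2.42, adjusted p = 1.07e-10). Nodal itself, a TGF-beta family ligand, fell from 27.3 in each library to 6.84 and 7.66 CPM in Msx1+ cells (-1.48, adjusted p = 1.03e-07). In Msx1- cells Nodal was higher on both days and fell less, from 69.8 and 72.25 to 52.9 and 52.4 CPM. It was named from the primitive streak list, of whose 19 tested genes 26.3% were called, near the 28.6% over all genes. Of 17 germline genes, 13 were below 0 and none above. Dazl, an RNA-binding protein of germ cells, stood at 92.1 and 78.5 CPM in Msx1- and 7.04 and 8.15 CPM in Msx1+ libraries of day 16, against 39.1 and 41.1 and 27.3 and 21.5 CPM at day 8.

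By size, the 4 leading genes of the class with enough counts in every group were Foxn4, Calcoco2, Tarm1 and Mep1b. Calcoco2 (GRCm38 chr11:96099326-96111964, of a family of autophagy receptors) differed from the pluripotency genes because it was higher in Msx1+ cells at day 8. It stood at 151 and 141 CPM there, at 73.9 and 74.9 CPM in Msx1- cells of day 8, at 62.5 and 61.4 CPM in Msx1- cells of day 16 and at 8.19 and 11.1 CPM in Msx1+ cells of day 16. The Msx1+ fraction was thus the highest group at day 8 and the lowest at day 16, with an interaction of -3.65 ± 0.140 (SE; adjusted p = 7.01e-10). Mep1b, the beta subunit of the metalloprotease meprin, went from 7.60 and 8.26 to 0.738 and 1.11 CPM in Msx1+ cells, against 23.03 and 21.98 and then 30.4 and 30.7 CPM in Msx1- cells. Acan, the cartilage proteoglycan aggrecan, fell from 20.7 and 27.1 to 2.59 and 2.73 CPM in Msx1+ cells while Msx1- libraries stayed between 14.3 and 18.5 CPM (-2.94, adjusted p = 4.54e-08). ES cells also held Acan, at 26.1 and 25.6 CPM. Of 19 chondrocyte genes tested, 6 were below 0 and 2 above (42.1% called, 28.6% over all genes). Their summed level in Msx1+ cells went the other way, from 250.2 and 277.4 to 370.6 and 336.5 CPM.

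Of 20 epithelial adhesion genes, 18 had an interaction below 0 and none above, median -1.04. The shares over all genes to set beside this and the later list counts are 18.3% below 0 and 10.3% above. Elf3, an epithelial transcription factor, was at 82.2 and 83.0 CPM in Msx1- and 12.3 CPM in each Msx1+ library of day 16, from 46.7 and 48.0 and 29.7 and 33.2 CPM at day 8. Marveld3, a tight junction protein, changed sign: it was at 6.42 and 7.45 CPM in Msx1+ against 4.49 and 4.52 CPM in Msx1- cells at day 8, and at 2.90 and 2.32 against 5.26 and 5.89 CPM at day 16. Of 24 hypoxia and glycolysis genes, 19 were below 0 and 1 above, median -0.53. Egln3, an oxygen-sensing prolyl hydroxylase, went to 10.1 and 13.3 CPM in Msx1+ cells of day 16 against 65.2 and 74.7 CPM in Msx1- cells (-1.70, adjusted p = 2.32e-06), and Adm, the vasodilator peptide adrenomedullin, was the member above 0 (1.17, adjusted p = 0.00506).

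The next class, genes that rose only in Msx1- cells by the limits, held 7 of 29 visceral endoderm genes, beside 658 of all 22294 genes tested. Aqp8 (GRCm38 chr7:123462291-123468004), a water channel, stood at 1.65 and 2.12 CPM in Msx1- and 1.25 and 0.707 CPM in Msx1+ libraries of day 8, and at 103 CPM in each Msx1- library and 1.66 and 1.25 CPM in the Msx1+ libraries of day 16. Only the Msx1- libraries of day 16 were high, and the interaction was -5.14 ± 0.306 (SE; adjusted p = 1.28e-07). Afp, the fetal serum protein alpha-fetoprotein made by visceral endoderm, rose from 0.197 and 0.225 to 11.9 and 12.3 CPM in Msx1- cells. In Msx1+ cells it stood at 2.73 and 2.19 CPM at day 8 and at 4.23 and 3.79 CPM at day 16, so the fraction with more Afp changed (interaction -5.12 ± 0.300, SE; adjusted p = 1.68e-08). Gata4, an endoderm and heart transcription factor, rose from 11.5 and 13.2 to 165 and 167 CPM in Msx1- cells and from 19.8 and 22.6 to 39.7 and 40.1 CPM in Msx1+ cells (-2.84, adjusted p = 3.49e-10).

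Of 29 visceral endoderm genes, 14 were below 0 and 2 above, median -0.68. Sox17, an endoderm transcription factor listed under gut endoderm and endothelium, rose from 2.91 and 3.35 to 81.8 and 87.0 CPM in Msx1- cells and from 1.97 and 2.08 to 8.81 and 10.6 CPM in Msx1+ cells. The 2 members above 0 were Spink1, a trypsin inhibitor, and Fgb, the fibrinogen beta chain. Spink1 rose in both fractions, to 22.0 and 18.7 CPM in Msx1- and 21.3 and 24.0 CPM in Msx1+ cells, from 1.22 and 1.71 and from 0.396 and 0.539 CPM. Fgb had 43 counts in Msx1- and 0 in Msx1+ cells of day 8 and 144 and 125 counts at day 16, so its fold rests on a group without counts. The summed level of the 29 genes was 340.0 and 341 CPM in Msx1- and 220.1 and 233 CPM in Msx1+ libraries of day 8, and 1385 and 1434 against 459 and 457 CPM at day 16. Alb and Trf, the serum proteins albumin and transferrin, had group means below 2 CPM throughout. How far cells of this kind in the Msx1- fraction set the other results below was not tested.

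The basement membrane genes of this pattern were singled out after their values were seen. Col4a1, a type IV collagen chain (GRCm38 chr8:11198423-11312826), stood at 186 and 187 CPM in Msx1- and 339.7 and 362 CPM in Msx1+ cells of day 8, then at 6629 and 6777 CPM in Msx1- and 919 and 803 CPM in Msx1+ cells of day 16. Both fractions rose and the higher fraction changed (interaction -3.88 ± 0.0978, SE; adjusted p = 1.17e-11). Its neighbour Col4a2 behaved alike, at 99.6 and 99.5, 214 and 247, 3557 and 3787, and 693 and 603 CPM in the same order of groups. The exons of these neighbours overlap in GENCODE vM21, and reads there were not separated by strand. Lamb1, a laminin chain, went from 201 in each library to 2274 and 2563 CPM in Msx1- cells, and stood at 474 and 554 and then 649.5 and 613 CPM in Msx1+ cells. Sparc, a matrix protein abundant in parietal endoderm and bone, went from 428 and 431 to 3862 and 3592 CPM in Msx1- cells and from 619 and 584 to 1930 and 1898 CPM in Msx1+ cells (-1.45, adjusted p = 1.37e-08). Pth1r, the receptor for parathyroid hormone and its related peptide, known in both parietal endoderm and osteoblasts, went from 5.71 and 6.13 to 248 and 269 CPM in Msx1- cells and from 15.1 and 16.9 to 58.5 and 52.8 CPM in Msx1+ cells. Reads of Pth1r exons shared with Myl3 cannot be assigned to either gene without strand.

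Tpbgl, a membrane protein related to the trophoblast glycoprotein, gave the largest interaction of the class among genes with at least 10 counts in every group, -5.87 ± 0.371 (SE; adjusted p = 3.64e-08). It stood at 12.5 and 13.1 CPM in the Msx1- libraries of day 16 and at or below 1.03 CPM in the other 6. Gkn2, a gastric mucosal protein, had 2965 counts in Msx1- cells of day 16 and 2, 22 and 10 counts in Msx1- and Msx1+ cells of day 8 and Msx1+ cells of day 16. Its counts, scaled to the library totals, were 1475 times those of Msx1- cells at day 8 (exact 95% interval 408 to 12190, counting error only) and 313 times those of Msx1+ cells at day 16 (169.9 to 653).

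Upstream sequences of 4 genes are shown because these genes mark the 2 patterns in which a single group of day 16 stood high: Tpbgl and Gkn2 for Msx1-, and Clec11a and Ibsp, described next, for Msx1+. They are the 250 bases before the RefSeq start on GRCm38.p6, 5′ to 3′ on the strand of the gene, with matches to TATAAA on either strand in capitals. The genes and the motif were chosen after matches to 4 motifs on both strands had been looked at, namely the homeodomain core TAATTA, the E-box CANNTG, the TATA box TATAAA and ATGCAA, part of the octamer. Of the 27025 promoters in the same table, 13% hold TATAAA on either strand in the same window.
Tpbgl, chr7:99627104-99627353, minus strand: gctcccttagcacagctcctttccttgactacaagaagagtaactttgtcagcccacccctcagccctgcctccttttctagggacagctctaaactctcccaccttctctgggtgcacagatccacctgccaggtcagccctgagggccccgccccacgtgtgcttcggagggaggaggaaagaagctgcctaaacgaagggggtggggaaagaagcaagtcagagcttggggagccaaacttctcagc
Gkn2, chr6:87373115-87373364, plus strand: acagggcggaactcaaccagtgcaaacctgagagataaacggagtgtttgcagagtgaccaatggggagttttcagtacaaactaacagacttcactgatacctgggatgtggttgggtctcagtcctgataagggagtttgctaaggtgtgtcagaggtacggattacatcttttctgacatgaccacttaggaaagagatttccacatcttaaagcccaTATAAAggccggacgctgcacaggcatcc
Clec11a, chr7:44306960-44307209, minus strand: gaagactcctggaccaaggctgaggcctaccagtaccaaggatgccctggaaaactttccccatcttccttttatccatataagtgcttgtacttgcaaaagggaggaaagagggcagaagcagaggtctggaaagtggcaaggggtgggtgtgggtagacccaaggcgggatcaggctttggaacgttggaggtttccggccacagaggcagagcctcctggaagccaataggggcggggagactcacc
Ibsp, chr5:104299037-104299286, plus strand: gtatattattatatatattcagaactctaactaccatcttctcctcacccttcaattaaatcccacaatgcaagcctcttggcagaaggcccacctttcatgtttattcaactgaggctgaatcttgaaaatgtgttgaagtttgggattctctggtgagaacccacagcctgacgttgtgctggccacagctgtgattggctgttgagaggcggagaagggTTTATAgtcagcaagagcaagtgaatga
Gkn2 and Ibsp hold 1 match each, beginning 29 and 28 bases before the start. Tpbgl and Clec11a hold none in this window. A match is a string of letters and not a measured site, and the table held a promoter for 14149 of the 22294 tested genes, too few to compare the classes.

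The 231 genes that rose only in Msx1+ cells by the limits, of all 22294 tested, included 5 of the 32 mesenchymal matrix and 6 of the 22 odontogenic mesenchyme genes tested. Clec11a, a growth factor for bone-forming progenitors, stood at 1.46 and 2.08 CPM in Msx1- and 1.05 and 1.176 CPM in Msx1+ libraries of day 8, and at 1.01 and 1.03 against 16.1 and 17.2 CPM at day 16. The Msx1+ libraries of day 16 alone were high, with an interaction of 4.68 ± 0.281 (SE; adjusted p = 2.07e-08). Thy1, a surface glycoprotein of mesenchymal stem cells, went from 43.3 and 40.6 to 225 and 247 CPM in Msx1+ cells while Msx1- libraries stayed between 15.0 and 18.7 CPM (2.75 ± 0.0993, SE; adjusted p = 1.40e-10). Bmp4, a ligand of tooth and bone induction, stood at 13.9 and 12.5 against 13.7 and 12.3 CPM at day 8, and at 9.98 and 9.33 against 58.8 and 61.7 CPM at day 16 (2.67, adjusted p = 2.41e-09). Ccnd1, the G1 cyclin D1, stood between 51.7 and 60.1 CPM in the 4 libraries of day 8, and at 47.0 and 48.0 against 259 and 265 CPM at day 16 (2.62 ± 0.0826, SE; adjusted p = 4.99e-11).

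Bone genes went both ways. Of 17 osteoblast genes tested, 7 were above 0 and 4 below, median 0.58. Sp7, the osteoblast transcription factor osterix, singled out after its values were seen, rose from 14.3 and 16.2 to 33.3 and 33.0 CPM in Msx1+ cells and fell from 1.66 and 1.76 to 0.830 and 0.913 CPM in Msx1- cells (2.09, adjusted p = 1.41e-06). Ibsp, bone sialoprotein, stood at 1.13 and 1.09 CPM in Msx1+ cells of day 8 and 53.8 and 58.6 CPM at day 16, with 6 and 2 counts in all in the Msx1- groups. The rise within Msx1+ cells was 47.2-fold by summed counts (exact 95% interval 41.0 to 54.5, counting error only). Its interaction, 7.22 (adjusted p = 9.72e-04), rested on those few counts: all 6 counts of the Msx1- group at day 8 were in replicate 1, and without that library it was 2.32 (adjusted p = 0.927). Omd, the bone proteoglycan osteomodulin, was likewise lost with DESeq2 (adjusted p = 0.0537) and without any of 6 single libraries, the largest adjusted p being 0.426 without replicate 1 of the day 8 Msx1- group. Below 0 stood Pth1r, described above, and Alpl, the mineralising enzyme alkaline phosphatase that ES cells also make, which fell from 72.0 and 71.7 to 16.6 and 20.01 CPM in Msx1+ cells and stood at 234 and 229 and then 189 and 190 CPM in Msx1- cells (-1.69, adjusted p = 2.05e-08).

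Of 32 mesenchymal matrix genes, 13 had an interaction above 0 and 7 below, with a median of 0.14 that turned to -0.05 with library size scaling. Among those with an absolute interaction of at least 1, 9 rose in both fractions and 5 in Msx1+ cells only. Aspn, the small proteoglycan asporin, went from 1.05 and 0.813 to 45.3 and 52.0 CPM in Msx1+ cells and from 0.0823 and 0.0750 to 0.365 and 0.299 CPM in Msx1- cells (3.68 ± 0.615, SE; adjusted p = 3.83e-04). Ogn, the proteoglycan osteoglycin, went from 0.354 and 0.486 to 53.02 and 57.9 CPM in Msx1+ cells and from 0.197 and 0.0750 to 1.15 and 0.581 CPM in Msx1- cells (4.39, adjusted p = 4.73e-04), a call lost without replicate 1 of the Msx1- cells of day 8 (3.53, adjusted p = 0.0580). Col3a1, fibrillar collagen III, went from 212 and 224 to 2461 and 2277 CPM in Msx1+ cells. In Msx1- cells it went from 2.12 and 2.49 to 112 and 121 CPM, a larger fold from a lower level, so its interaction was -2.22 ± 0.117 (SE; adjusted p = 5.91e-09). Cdh11, the mesenchymal cadherin, gave -1.58 (adjusted p = 3.10e-07) in the same way. The summed level of the 32 genes was 2459 and 2418 CPM in Msx1- and 5744 and 6435 CPM in Msx1+ libraries of day 8, and 6652 and 6576 against 31550 and 29050 CPM at day 16. Such a sum follows the most abundant members of a list. The median log2 change of the 32 genes from day 8 to day 16 was 1.99 in Msx1+ and 2.03 in Msx1- cells.

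For several mesenchymal regulators the interaction was below 0 with a rise of the Msx1- fraction from a low level, while Msx1+ stayed higher. Pdgfra, the PDGF receptor of mesenchyme and primitive endoderm, stood at 18.1 and 17.1 CPM in Msx1- and 122 and 131 CPM in Msx1+ cells of day 8, and at 145 and 153 against 210.3 and 195 CPM at day 16 (-2.41 ± 0.0924, SE; adjusted p = 2.56e-10). Prrx1, a homeobox factor of limb and head mesenchyme, went from 0.855 and 0.562 to 10.24 and 10.04 CPM in Msx1- cells and from 177 and 179 to 618 and 619.6 CPM in Msx1+ cells (-2.02, adjusted p = 1.51e-07). Both were singled out after their values were seen. Osr1, a zinc finger factor of intermediate mesoderm and connective tissue, had 0 counts in Msx1- cells of day 8 and 160 at day 16, beside 9.06 and 9.24 and then 21.8 and 23.3 CPM in Msx1+ cells. Inhba, the activin A subunit, had 2 counts in Msx1- cells of day 8, stood at 6.39 and 5.69 CPM there at day 16, and went from 17.2 and 16.6 to 226 and 218 CPM in Msx1+ cells. Its summed level in Msx1+ cells at day 16 was 35.9 times that in Msx1- cells (exact 95% interval 33.4 to 38.7, counting error only). Srpx2, a secreted sushi-repeat protein, had 0 counts in Msx1- cells of day 8, and its call was lost without either library of that group (-4.77, adjusted p = 0.0907, and -4.79, adjusted p = 0.0675). Cemip, a hyaluronan-degrading protein, went from 1.83 and 1.29 to 75.9 and 78.7 CPM in Msx1- and from 34.7 and 36.0 to 107 and 90.7 CPM in Msx1+ cells (-4.14 ± 0.156, SE; adjusted p = 2.38e-10).

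Of 34 ectomesenchyme genes, 11 were above 0 and 12 below, median -0.13, and of 22 odontogenic mesenchyme genes, 8 and 7, median -0.34. Over all genes, 10.3% were above 0 and 18.3% below. Both lists were higher in Msx1+ cells on both days, with medians of 3.16 and 3.41 for ectomesenchyme at days 8 and 16 on the log2 scale. Dlx3, a homeobox factor of tooth and placenta, changed sign, from 17.4 and 19.2 to 11.9 and 8.69 CPM in Msx1+ cells and from 8.39 and 7.83 to 24.5 and 25.9 CPM in Msx1- cells (-2.46, adjusted p = 1.84e-07). Of 23 neural crest genes, 14 were below 0 and 2 above, median -0.95, 7 of them falling in Msx1+ cells only. Zic1, a neural plate border factor that shares exon bases with Zic4, rose in both fractions, from 0.296 and 0.412 to 4.22 and 5.87 CPM in Msx1- and from 8.35 and 8.36 to 19.03 and 16.4 CPM in Msx1+ cells. Crabp1, a retinoic acid binding protein, was above 0 (1.13, adjusted p = 5.21e-05). Smooth muscle genes were above 0 in 9 of 18 and below in 2, median 0.55: Lmod1, an actin filament nucleator, rose from 1.13 and 1.65 to 23.9 and 26.0 CPM in Msx1+ and from 1.58 and 1.97 to 4.13 and 4.73 CPM in Msx1- cells (2.81, adjusted p = 1.32e-06).

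**Figure D3:**
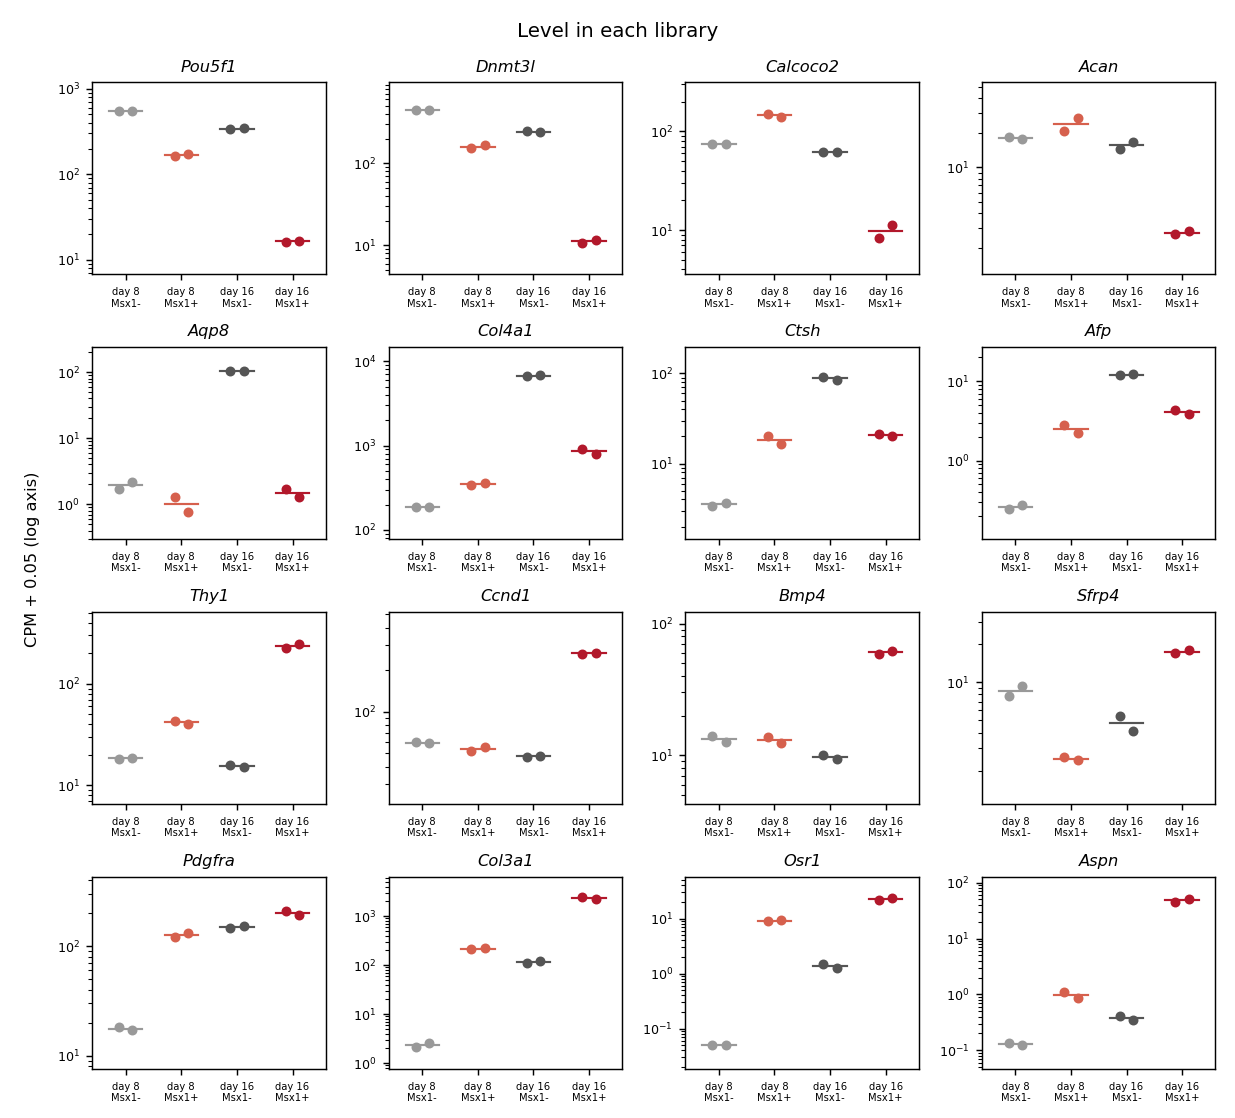
Points are the 2 libraries of each group and lines their mean, as CPM plus 0.05 on a log axis, for 16 genes; the top row fell in Msx1+ cells at day 16, the second row rose most in Msx1- cells, the third rose in Msx1+ cells, and the bottom row rose in both fractions or, for Pdgfra, mainly in Msx1- cells. The libraries of a group lie close together beside the distances between groups, as for Aqp8, at 103 CPM in each Msx1- library of day 16 and at most 2.12 CPM elsewhere.

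Genes whose fraction difference changed sign were those called between the fractions on both days with opposite sign. In 396 genes (1.78% of those tested) Msx1+ was higher at day 8 and lower at day 16, and in 196 (0.879%) it was lower at day 8 and higher at day 16. Every gene of both sets was also called in the interaction. This is a description that follows largely from the choice, because the interaction is the difference between those 2 daily differences. The sizes were unequal: the first set had median log2 differences of 0.79 at day 8 and -0.91 at day 16, the second -0.31 and 0.34. With an absolute log2 of at least 1 on both days, 107 (0.480%) and 3 (0.0135%) remained. Among the 396, the highest group was Msx1- at day 16 in 211 and Msx1+ at day 8 in 185. Among the 196, it was Msx1+ at day 16 in 115 and Msx1- at day 8 in 81.

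Ranked by the smaller of their 2 daily differences, among genes with enough counts in every group, the first 6 of the first kind were Adora1, Ctsh, Fst, Wfdc1, Tpbgl and Afp. Ctsh, the lysosomal protease cathepsin H, was at 3.37 and 3.65 CPM in Msx1- and 20.2 and 16.6 CPM in Msx1+ libraries of day 8, and at 91.9 and 83.9 against 21.3 and 20.04 CPM at day 16. The Msx1+ libraries overlapped between the days, and the change came with a rise in Msx1- cells (interaction -4.47 ± 0.147, SE; adjusted p = 6.57e-11). Fst, follistatin, which binds activins, did likewise, at 7.29 and 5.96 against 30.7 and 27.2 CPM at day 8 and at 154 and 138 against 34.7 and 40.3 CPM at day 16 (-4.08, adjusted p = 3.24e-10). Adora1, the adenosine A1 receptor, went from 0.477 and 0.281 to 15.7 and 14.9 CPM in Msx1- cells beside 2.15 and 2.86 and then 3.22 and 3.21 CPM in Msx1+ cells. Wfdc1, a protease inhibitor-like secreted protein, went from 0.165 and 0.112 to 11.1 and 10.7 CPM in Msx1- cells and was at or below 0.601 CPM in Msx1+ cells (-7.28 ± 0.483, SE; adjusted p = 5.81e-08). Its difference at day 8 rests on 16 counts in Msx1- and 93 in Msx1+ cells, near the floor. Those of Tpbgl and Afp rest on 34 against 171 and on 24 against 441 counts. Signalling antagonists and a morphogen-degrading enzyme, singled out after their values were seen, had the same form. Nog, the BMP antagonist noggin, was at 1.23 and 0.768 against 6.48 and 9.15 CPM at day 8 and at 29.2 and 32.1 against 10.3 and 12.3 CPM at day 16. Cyp26a1, which degrades retinoic acid, was at 2.35 and 3.11 against 12.9 and 11.5 CPM and then at 66.5 and 68.2 against 25.4 and 29.2 CPM.

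By movement, 128 of the 396 rose in Msx1- cells only, 104 fell in Msx1+ cells only, and 27 did both. Spock1, a matrix proteoglycan of the SPARC family, was of the last kind: it stood at 2.14 and 2.40 against 50.9 and 52.3 CPM at day 8 and at 37.3 and 40.1 against 24.4 CPM in each Msx1+ library at day 16 (-5.18 ± 0.123, SE; adjusted p = 1.08e-11). Clu, the secreted chaperone clusterin, changed sign with a rise in both fractions, from 21.8 and 24.0 to 433 and 429 CPM in Msx1- and from 185 and 179 to 253 and 290 CPM in Msx1+ cells.

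By the same ranking the first 6 in the other direction were Sfrp4, Icam1, Myrf, Plekha4, Gdf15 and Map1a. Sfrp4, a secreted WNT antagonist, was at 7.68 and 9.28 CPM in Msx1- and 2.504 and 2.36 CPM in Msx1+ libraries of day 8, and at 5.35 and 4.03 against 16.9 and 18.0 CPM at day 16 (3.69 ± 0.222, SE; adjusted p = 2.10e-08). It was 1 of the 3 with an absolute log2 of at least 1 on both days. The others were Itgb3bp, a centromere protein, with 49 to 436 counts per group, whose call was lost when the ES libraries were added to the fit (adjusted p = 0.0674), and C530025M09Rik, with 27, 4, 0 and 18 counts in Msx1- and Msx1+ cells of day 8 and of day 16; neither was within the rule for named genes. Icam1, the leukocyte adhesion molecule, was at 19.8 and 20.9 against 10.1 and 11.6 CPM at day 8 and at 14.9 and 15.8 against 33.6 and 32.9 CPM at day 16. Gdf15, a stress-induced cytokine and p53 target, was at 8.46 and 8.45 against 4.57 and 5.54 CPM and then at 8.87 and 8.80 against 28.1 and 29.8 CPM (2.45, adjusted p = 4.94e-08). Fn1, fibronectin, singled out after its values were seen, was at 1686 and 1639 against 1026 and 1214 CPM at day 8 and at 1521 and 1589 against 3349 and 2811 CPM at day 16.

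Among signalling lists, hedgehog and WNT had more members above 0 than below, where all genes had 10.3% above and 18.3% below. Of 15 hedgehog genes, 7 were above 0 and 3 below, median 0.44. Gli1, a transcription factor that is also a target of the pathway, was at 11.1 and 14.2 CPM in Msx1- and 2.59 and 3.10 CPM in Msx1+ cells of day 8, and at 10.04 and 9.81 against 14.2 and 14.3 CPM at day 16 (2.66 ± 0.198, SE; adjusted p = 1.80e-07), and Gli2 gave 1.78 (adjusted p = 1.37e-07). Ihh, a ligand, rose from 1.48 and 1.54 to 15.9 and 17.2 CPM in Msx1- cells and from 0.608 and 0.566 to 1.71 and 1.88 CPM in Msx1+ cells (-1.84, adjusted p = 7.02e-05). Of 21 WNT genes, 9 were above 0 and 4 below, median 0.57. Lef1, a nuclear effector of WNT, fell from 26.0 and 25.5 to 8.42 and 11.2 CPM in Msx1- cells and rose from 6.16 and 6.17 to 13.8 and 14.3 CPM in Msx1+ cells, and was 1 of the 5 genes that rose in Msx1+ while falling in Msx1- cells. Notum, an extracellular WNT inhibitor, fell from 18.8 in each library to 7.84 and 7.98 CPM in Msx1- cells (1.92, adjusted p = 1.89e-06), and Wnt11, a ligand, was below 0 (-2.56, adjusted p = 1.86e-07). The list named p53 response also holds the D cyclins Ccnd1 and Ccnd2 and the cell cycle inhibitor Cdkn1c. Of its 17 genes, 10 were above 0, Ccnd1 and Gdf15 the largest, and 2 below, median 0.43. Activity of p53 was not tested. BMP genes were split 4 above and 7 below of 20, TGF-beta genes 5 and 7 of 17, and retinoic acid genes 5 and 6 of 17.

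Called markers of other cell types were more often below 0 than above, as were called genes over the whole table (4090 against 2294). Surface ectoderm genes were below 0 in 17 of 27 with none above, median -1.08, trophectoderm in 9 of 16 with 1 above, endothelium in 10 of 20 with 2 above, blood in 7 of 16 with none above, cardiac muscle in 7 of 19 with 1 above, and neurons in 9 of 26 with 2 above. Glia and melanocyte genes were below 0 in 7 of 15 with none above, neural progenitor genes in 8 of 24 with 2 above, gut endoderm in 6 of 21 with 1 above, skeletal muscle in 4 of 17 with 1 above, and adipocytes in 2 of 10 with 1 above. The shares called of gut endoderm (33.3%), adipocyte (30%) and skeletal muscle genes (29.4%) were near the 28.6% over all genes. Sox7, an endoderm and endothelial factor, rose from 5.28 and 4.40 to 24.2 and 28.5 CPM in Msx1- cells, with Msx1+ libraries between 2.29 and 3.40 CPM. Kdr, the VEGF receptor of endothelium, was above 0 (0.77, adjusted p = 0.0117, and 0.0515 without replicate 1 of Msx1+ at day 16). The embryonic globin gene Hbb-y was at 7.55 and 6.94 CPM in Msx1- and 12.6 and 12.9 CPM in Msx1+ cells of day 16, and at 0.0165 and 0 against 1.47 and 0.698 CPM at day 8. Gad1, the GABA-producing enzyme of neurons, was high only in Msx1+ cells of day 8, at 14.4 and 14.9 CPM against 1.28 to 2.27 CPM in the other 6 libraries (-3.40, adjusted p = 1.94e-07). The summed surface ectoderm level was 656 and 671 CPM in Msx1- and 999.7 and 1057 CPM in Msx1+ libraries of day 8, and 1801 and 1842 against 1264 and 1282 CPM at day 16. What share these cell types had in each fraction was not tested.

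None of 30 ribosomal protein genes was called by edgeR or DESeq2, nor had any an unadjusted p under 0.05, beside 28.6% called over all genes. Their medians were -0.66 and -0.68 between the fractions at days 8 and 16. Of 13 mitochondrial genes, 1 was above 0 and 1 below. The shares called of cell cycle genes (30.8%), nuclear lamina genes (27.8%) and Hox genes (25.6%) were near that over all genes. Of 26 cell cycle genes, 6 were below 0 and 2 above, median -0.06, and the members named by rule ranged from -0.53 for Ccnb1 to 0.33 for Rrm2, whose call was lost with library size scaling (adjusted p = 0.230). Hox genes were split 5 and 5 of 39 and were higher in Msx1+ cells on both days, with medians of 2.36 and 2.43. Of 18 nuclear lamina genes, 3 were above 0 and 2 below. Tmpo, a lamina-associated protein named in the title of the series, was at 253 and 249.7 against 221 and 219.5 CPM at day 8 and at 220.2 and 226 against 237 and 231 CPM at day 16. Its interaction was 0.26 ± 0.0739 (SE; adjusted p = 0.0157) and was lost with library size scaling (0.07, adjusted p = 0.493) and without any of 3 single libraries (adjusted p from 0.0520 to 0.0642).

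**Figure D4:**
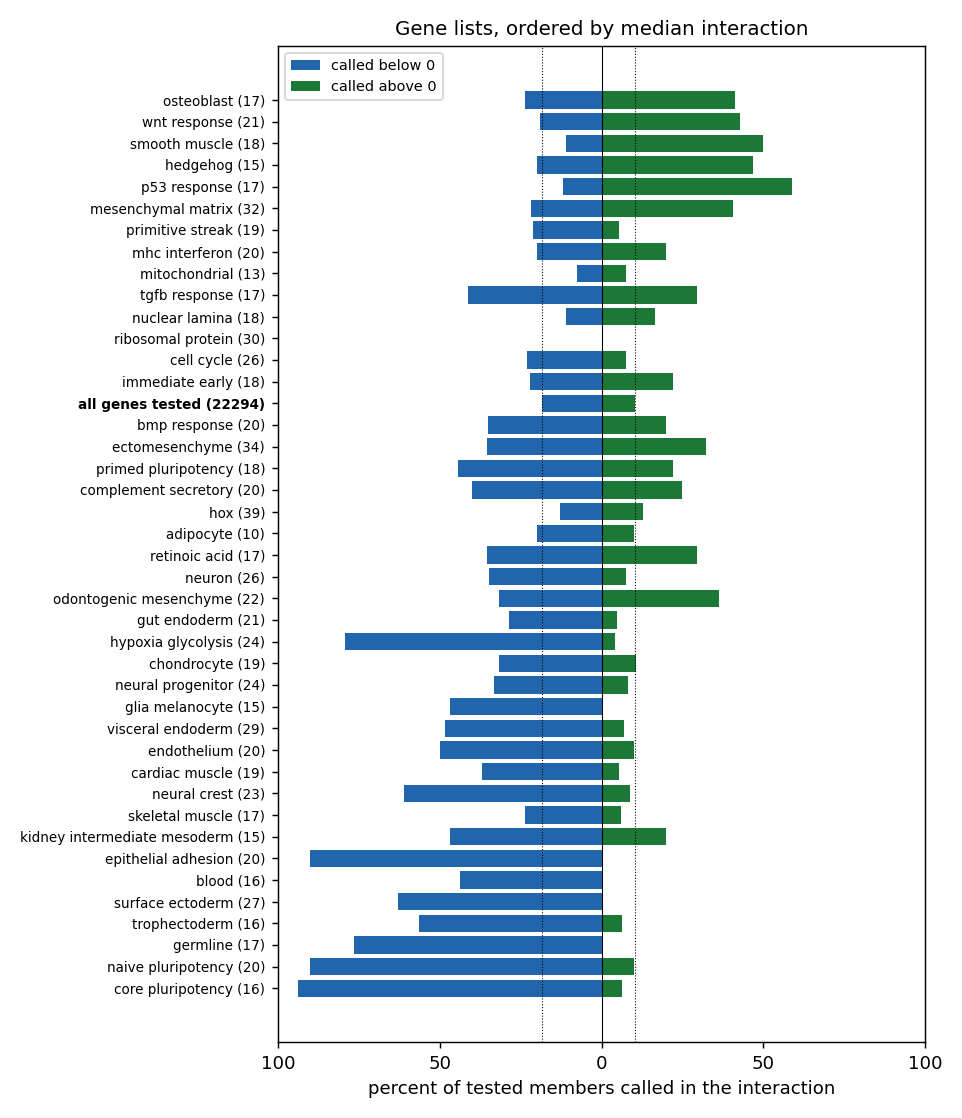
Bars give, for each list, the percentage of its tested members (number in brackets) called in the interaction above 0, to the right, and below 0, to the left; dotted lines mark all genes tested, 10.3% and 18.3%. Lists are ordered by their median interaction, from osteoblast at 0.58 to core pluripotency at -2.30.

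The levels were also set beside those of the undifferentiated ES cells, of which 2 libraries are in the same table and took no part in the tests. For each gene the group nearest to the ES level was found on the scale log2(CPM + 0.5). Over 22228 genes, Msx1- cells of day 8 were nearest for 54.8%. They were nearest for 88.3% of the genes that rose in both fractions and for 73.6% of those that rose in Msx1- only, genes whose median level in ES cells was 0.0974 and 0.185 CPM. Genes of each class were chosen by their changes between the days, so shares and distances by class follow in part from that choice. In the 1418 genes that fell in Msx1+ cells only, the median distance from ES cells was 0.02 for Msx1- at day 8, -0.30 for Msx1+ at day 8, -0.05 for Msx1- at day 16 and -1.45 for Msx1+ at day 16. These are medians over genes that lay above and below the ES level: Msx1- cells of day 8 were nearest for 43.2% of the 1418, Msx1- cells of day 16 for 26.6%, Msx1+ cells of day 8 for 18.7% and Msx1+ cells of day 16 for 11.6%. Pou5f1 was at 762 CPM in ES cells, above all 4 groups.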

How the data were processed

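Total RNA (TRI Reagent) was sequenced after preparation with NEBNext Ultra RNA reagents, per the labels' protocols, a chemistry without strand marks. The authors deposited whole-number read counts per gene symbol for the 8 sorted and 2 ES libraries. Per the submitters' processing notes, the tools were HISAT2 2.1.0, fastp 0.20.0 and DESeq2 1.18.1, on build GRCm38. For the read counter and the annotation, neither is named (not given in the sources used here). No per-sample column of the table was left out, and the counts of a day 2 experiment are not used here.

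Counts of the 8 sorted libraries were filtered by filterByExpr and scaled by TMM. They were fitted with edgeR 4.0.16 (robust quasi-likelihood, 1 mean per group) in R 4.3.3, with Benjamini-Hochberg adjustment across all 22294 genes and a threshold of 0.05 on the adjusted p. The SE is the absolute log2 value over the root of the F statistic. With 2 libraries against 2, a two-sided exact permutation test of 1 gene cannot go below p = 0.333, so none was run. The movement classes required an absolute log2 of at least 1 in the interaction and in the tests over time. The group standing farthest off was found from the widest gap in log2(mean CPM + 0.5). The scripts were tested on simulated counts, where unchanged genes made up a larger share of the calls than the threshold allows on average, so genes near the threshold are the less certain. Simulated interactions of -1 and 1 on the log2 scale were called in 44% and 48% of genes, and those of -2 and 2 in 66% and 64%. Far fewer genes were given a change there than the 28.6% called in the data. The adjustment for many tests was therefore stricter in the simulation, and these shares do not carry over to the data. A gene that was not called is not shown to be unchanged.

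The genes, lists and tests were chosen with earlier results of these data known. Named genes were the 4 largest by interaction in each class and the 6 largest in each sign change by the smaller of the 2 daily differences (at least 10 counts in every group, 5 CPM in some group, the same sign with each library left out). Added were the 4 highest in each direction with 3 or fewer counts in a group and the 2 largest called members of each list in each direction. These too had to keep their sign with each library left out. Msx1, Dlx2 and Tmpo were added whatever their values, and the text says where others were singled out. Of 42 lists, 2 duplicate symbols were removed and 1 list with fewer than 5 tested members was dropped after the table was seen. Coordinates come from GENCODE vM21 by symbol (22049 matched). Exons of Adora1, Aspn, Bmp4, C530025M09Rik, Ccnd1, Col3a1, Col4a1, Col4a2, Dnmt3l, Elf3, Fn1, Fst, Gli1, Icam1, Itgb3bp, Lef1, Map1a, Notum, Pdgfra, Pou5f1, Pth1r, Sox17, Spp1, Tmpo, Tpbgl, Wnt11 and Zic1 overlap those of other annotated genes, and their reads were not separated by strand. Intervals on counts are exact and cover counting error only.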

Additional observations from a re-analysis of the deposited data

Results flagged for a closer look

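The change of the fraction difference with time is itself a test of a difference between 2 time points, so each called interaction qualifies: 4090 genes below 0 and 2294 above, with 396 in which the higher fraction went from Msx1+ to Msx1- and 196 in which it went from Msx1- to Msx1+. Among the genes named for a change of sign, the sign of the interaction follows from that choice, and its value is a description. It was -4.97 for Adora1, -4.47 for Ctsh, -4.08 for Fst, -7.28 for Wfdc1, -5.87 for Tpbgl and -5.12 for Afp. In the other direction it was 3.69 for Sfrp4, 2.02 for Icam1, 2.25 for Myrf, 1.66 for Plekha4, 2.45 for Gdf15 and 1.84 for Map1a. Groups of 2 libraries are too small to test for a library that stands apart.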

How the results depend on the processing

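Of 180 named genes, 155 kept their call and sign under every alternative that gave a value, and no named gene reversed. Apart from those fixed by name or singled out, they were chosen as called and of the same sign with each library left out. Their sign in those fits was therefore fixed by the choice, and they are among the largest changes, so these counts do not describe the other called genes. Deviations of same-numbered libraries from their group means were correlated without a common sign. The correlation was 0.73 between Msx1+ at day 8 and Msx1- at day 16, -0.54 between Msx1+ at day 8 and at day 16, and from -0.36 to 0.13 for the other pairs of groups. The main fit treats the libraries as independent, and the source of these correlations was not tested. A fit with the replicate block called 2178 genes above and 3912 below 0. Library size scaling gave 1088 genes above 0, and 609 and 66 sign changes from Msx1+ to Msx1- and from Msx1- to Msx1+ in place of 396 and 196. With at least 1 CPM in 2 libraries, 20 genes fell in Msx1- only. A log2 of at least 1 on both days left 107 and 3 sign changes. With no minimum log2, the classes held 894 (Msx1+ rose only), 572 (Msx1- fell only), 298 (Msx1+ rose, Msx1- fell), 442 (Msx1+ fell, Msx1- rose), 890 (both rose), 822 (both fell) and 132 (neither). With an interaction of at least 2 they held 63 (Msx1+ rose only), 784 (Msx1+ fell only), 399 (Msx1- rose only), 17 (Msx1- fell only), 76 (both rose), 37 (both fell) and 31 (neither). Those limits change counts by construction, and the cause of the other changes was not tested. With 1 library left out, sign changes from Msx1- to Msx1+ numbered 127 to 189, the lowest without replicate 2 of Msx1- at day 8, and 4 to 10 genes rose in Msx1+ while falling in Msx1-, with 10 without replicate 1 of Msx1- at day 8 or at day 16 and 9 without replicate 2 of Msx1- at day 8. Leaving out 1 library kept 2820 of the 4090 and 1382 of the 2294 genes called throughout.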
